A study of Mus musculus with 11 samples.

Results

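Cxcl12, Cxcr4 and Ackr3 encode a secreted chemokine and its receptors, and were picked by gene name as 3 of the 38924 genes counted in purified cerebellar granule cell precursors (GCps) of mice at postnatal day 7. RNA-Seq compared 2 cko libraries with 2 control libraries on a C57Bl/6J background. The cko mice carried Math1-Cre and homozygous floxed alleles of Chd7, a chromatin remodeler. The control genotype is Chd7flox/+ in the sample labels and the study's methods, but homozygous floxed in the notes on RNA extraction. Math1-Cre acts in the granule lineage and spares the most posterior lobules, and lobules IX and X were removed at dissection. In the study's purification method cerebella were pooled by genotype, dissociated with papain and separated on a Percoll gradient, which enriches GCps without sorting them. The RNA-Seq methods give cell numbers per cerebellum, and sex-linked genes (below) show mainly 1 sex in each library. Whether these libraries were pools is thus unclear. Whether replicate libraries stem from separate animals or cultures is not given, and the p-values below therefore reflect only how far these particular libraries differ. That spread may be technical in control, whereas sex-linked genes (below) show the cko libraries to hold RNA of different mice. The series holds 11 samples, of which the ATAC-Seq and ChIP-Seq samples were not analysed here.

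CXCL12 is a chemokine that the meninges secrete over the surface of the developing cerebellum. CXCR4, a receptor coupled to inhibitory G proteins, lets granule precursors sense it, and the pair holds these cells in the external granule layer (EGL) under the pia while they divide. ACKR3, the atypical receptor once called CXCR7, binds the same ligand, takes it up and signals through arrestins in place of G proteins. Meningeal fibroblasts and vessels are known sources of Cxcl12.

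Total counts were between 62437759 and 73480074 in cko libraries and between 61836588 and 77346481 in control libraries, and mitochondrial genes took between 1.86% and 3.80% of the cko totals and between 2.14% and 3.41% of the control totals. Values below are CPM, read counts scaled by library size after TMM normalization. Whole-gene Chd7 stood at 392 and 355 CPM in cko, against 322 and 319 CPM in control (log2 fold change 0.22, SE 0.10, adjusted p = 0.418, edgeR's quasi-likelihood test). Without knowing which exons Cre removes, a count over the whole gene does not check the deletion, and every direction rests on the labels. The study did report efficient deletion by RT-PCR in GCps purified at postnatal day 7, without tying that result to these libraries. Xist was at 793 and 0.114 CPM in cko and at 0.548 and 0.182 CPM in control, and the Y-linked Ddx3y at 0 and 68.2 CPM in cko and at 69.1 and 63.7 CPM in control. Cko replicate 1 thus stood apart in sex-linked genes, and results without it are given below. Among the 13 granule precursor markers all were detected, with summed levels of 6945 and 7413 CPM in cko and 6488 and 6714 CPM in control. Atoh1, the transcription factor that defines these precursors, was at 37.0 and 29.1 CPM in cko and at 25.6 and 30.1 CPM in control.

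The sequences just upstream of each start site are shown because they are where the 3 genes, which share a pathway, can be compared as DNA. Each line gives 100 bases ending at the RefSeq start on GRCm38.p6, 5′ to 3′ on the strand of the gene, with capitals for matches to the NRF1 site (GCGC, any base N, then TGCGC), the GC box GGGCGG and the TATA box TATAAA on either strand. Adjacent or overlapping matches run together.
Cxcl12 (chr6:117168435-117168534, plus strand): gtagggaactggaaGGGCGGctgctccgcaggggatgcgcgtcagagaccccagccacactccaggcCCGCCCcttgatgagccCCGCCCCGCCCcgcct
Cxcr4 (chr1:128592300-128592399, minus strand): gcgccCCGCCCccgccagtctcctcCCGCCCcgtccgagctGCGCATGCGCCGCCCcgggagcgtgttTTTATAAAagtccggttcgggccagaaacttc
Ackr3 (chr1:90203880-90203979, plus strand): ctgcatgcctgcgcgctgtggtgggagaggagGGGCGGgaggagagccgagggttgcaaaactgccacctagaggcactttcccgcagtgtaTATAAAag

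In the full 250 bases upstream, the GC box had 5 matches at Cxcl12, 3 at Cxcr4 and 1 at Ackr3, and 32.9% of the 27025 promoters in the same RefSeq table held at least 1. The NRF1 site matched once, at Cxcr4, where it overlaps a GC box, and 3.86% of promoters held a match. TATAAA matched at Cxcr4, on both strands in overlap, and at Ackr3, against 12.97% of promoters. CCAAT, also searched on both strands, matched only at Ackr3 among the 3 genes, against 34.5% of promoters. GC made up 64.4% of the window at Cxcl12, 61.2% at Cxcr4 and 54% at Ackr3, with a median of 52% over all promoters. These matches describe the letters of the windows and say nothing of binding.

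Cxcl12 (ENSMUSG00000061353) lies on the plus strand of chromosome 6 of GRCm38 from 117168535 to 117181367, a protein-coding gene with 8176 exonic bases. Cxcr4 (ENSMUSG00000045382) lies on the minus strand of chromosome 1 from 128588199 to 128592293, with 1808 exonic bases, and Ackr3 (ENSMUSG00000044337) on the plus strand of chromosome 1 from 90203980 to 90216751, with 3348 exonic bases. The counts are summed over all exons of a gene, and 0% of the exonic length of each gene overlaps another annotated gene.

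The 3 genes stood at very different levels, in the same order in all 4 libraries. Scaled to exonic length, Cxcr4 was at 63.8 and 69.8 CPM per kb in cko and at 26.9 and 38.7 CPM per kb in control. Cxcl12 was at 4.07 and 4.09 CPM per kb in cko and at 5.03 and 4.69 CPM per kb in control. Ackr3 was at 1.34 and 1.25 CPM per kb in cko and at 1.19 and 1.41 CPM per kb in control. The lowest library of each gene lay above the highest library of the next, so each step of the order exceeded the spread between libraries. The size of a step depends on the length used. The 8176 exonic bases of Cxcl12 join all its transcripts, of which the longest has 5627 bases and the shortest 1878. A shorter length would raise Cxcl12 here and in the comparisons per kb below. Which transcripts these cells use was not tested. Among the 16436 genes tested, Cxcr4 ranked at the 96.1 and 96.3 percentile of level per kb in cko and at the 87.2 and 91.8 percentile in control, whereas Ackr3 lay between the 32.0 and 34.5 percentile in every library.

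Cxcl12, the ligand, was modestly lower in cko GCps, without passing the test. It had 2567 and 2059 counts in cko, against 3152 and 2315 counts in control, or 33.3 and 33.5 CPM in cko and 41.1 and 38.4 CPM in control. Both cko libraries lay below both control libraries, as they did for 21.2% of all genes tested. Mean levels were 33.4 ± 0.135 CPM in cko and 39.8 ± 1.97 CPM in control (SD, n = 2 libraries each). The log2 fold change was -0.25 (SE 0.10, 95% interval -0.50 to -0.0058, adjusted p = 0.358, edgeR's quasi-likelihood test), which is 0.840 of the control level.

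Cxcr4, the signalling receptor on granule precursors, was about 2.04-fold higher in cko GCps. It had 8901 and 7765 counts in cko, against 3721 and 4217 counts in control, or 115 and 126 CPM in cko and 48.6 and 69.9 CPM in control. Both cko libraries lay above both control libraries, as they did for 22.7% of all genes tested, and the lower cko library was 1.65 times the higher control library. Mean levels were 120.8 ± 7.66 CPM in cko and 59.2 ± 15.1 CPM in control (SD, n = 2 libraries each). The control libraries differed from each other more than the cko libraries did, with a coefficient of variation of 25.4% in control beside 6.34% in cko. Counting error alone would give between 1.06% and 1.64% in a library, and Poisson 95% intervals of the control libraries ran from 47.0 to 50.2 and from 67.8 to 72.0 CPM, without overlap. These intervals cover counting error only.

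The log2 fold change of Cxcr4 was 1.03 (SE 0.18, 95% interval 0.60 to 1.46), with an unadjusted p of 0.00105 and an adjusted p of 0.0558 in edgeR's quasi-likelihood test, just above the threshold of 0.05, so Cxcr4 was not called. Over all genes, 260 of 16436 were called (1.58%), and 0 of the 3 chemokine genes. In the same test the unadjusted p was under 0.05 for 2 of the 3, Cxcl12 and Cxcr4, beside 13.6% of all genes, and DESeq2, run as an alternative, called Cxcr4 alone. An increase at least as large as that of Cxcr4 was reached by 2.41% of all genes tested, and a p no higher than its own, in either direction, by 1.87%. Among the 2808 genes with an average level no lower than that of Cxcr4, such an increase was reached by 5 (0.178%). These were Cxcr4, Syt13, Eln, Gm15772 and Xist, of which Syt13 passed edgeR's test (adjusted p = 0.00957). Decreases were left out of these counts of increases, such as that of the more abundant Gap43 (log2 fold change -1.36). In fits that leave out a library, the genotype with 1 library left is assumed to vary like the other, whose pair alone gives the spread. Without control replicate 1 the log2 fold change of Cxcr4 was 0.79 (adjusted p = 0.0252) and without control replicate 2 it was 1.31 (adjusted p = 0.0150), both past the threshold of edgeR's test. Without cko replicate 1, the library with Xist, it was 1.10 (adjusted p = 0.158), and without cko replicate 2 it was 0.96 (adjusted p = 0.143). The share of all genes called in these 4 fits was 1.31%, 0.675%, 1.4% and 4.19% in the order given. Cxcr4 also passed with scaling by total counts, where 1.33% of genes were called, without the filter on low counts (3.12%), with DESeq2 (5.53%), with DESeq2 and a prior on fold changes (5.79%) and with edgeR's likelihood ratio test (4.11%). The size of the difference thus lay between 0.79 and 1.31 whichever library was left out, while its side of the threshold changed.

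Ackr3, the scavenging receptor, showed no detectable difference at this depth. It had 346 and 258 counts in cko, against 304 and 284 counts in control, or 4.49 and 4.19 CPM in cko and 3.97 and 4.71 CPM in control, and the groups overlapped. Mean levels were 4.34 ± 0.206 CPM in cko and 4.34 ± 0.522 CPM in control (SD, n = 2 libraries each). The log2 fold change was 0.0023 (SE 0.19, 95% interval -0.46 to 0.46, adjusted p = 0.998, edgeR's quasi-likelihood test). The interval leaves room for a change of that size either way, and the counting error of Ackr3 in a library was between 5.38% and 6.23%. For single genes, an exact two-sided permutation test of 2 against 2 libraries gave p = 0.333 for Cxcl12 and for Cxcr4 and p = 1 for Ackr3, where 0.333 is the smallest value the design allows.

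**Figure D1:**
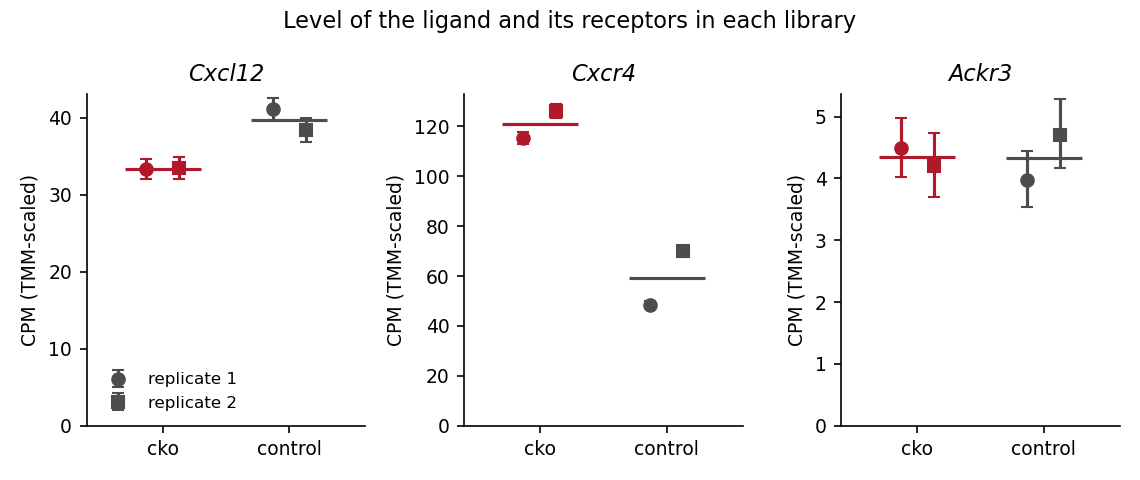
Level of Cxcl12, Cxcr4 and Ackr3 in each library, in TMM-scaled CPM on separate vertical axes that start at 0, with cko in red left of control in grey. Symbols are libraries (circle, replicate 1, and square, replicate 2), whiskers are Poisson 95% intervals and horizontal lines are group means. Cxcr4 stands at 115 and 126 CPM in cko, above 48.6 and 69.9 CPM in control, Cxcl12 at 33.3 and 33.5 CPM in cko, below 41.1 and 38.4 CPM in control, and Ackr3 overlaps.

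The ratio of the receptors to each other and to their ligand, taken per kb within a library, showed the same contrast. Cxcr4 stood at 47.6 and 55.7 times Ackr3 in cko, against 22.7 and 27.5 times in control. Relative to Cxcl12 it stood at 15.7 and 17.1 times in cko, against 5.34 and 8.24 times in control. Cxcl12 was at 3.04 and 3.27 times Ackr3 in cko and at 4.25 and 3.34 times in control, where both cko values lay below both control values by little. These ratios are descriptions of transcript levels in mixed cells and were not tested.

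**Figure D2:**
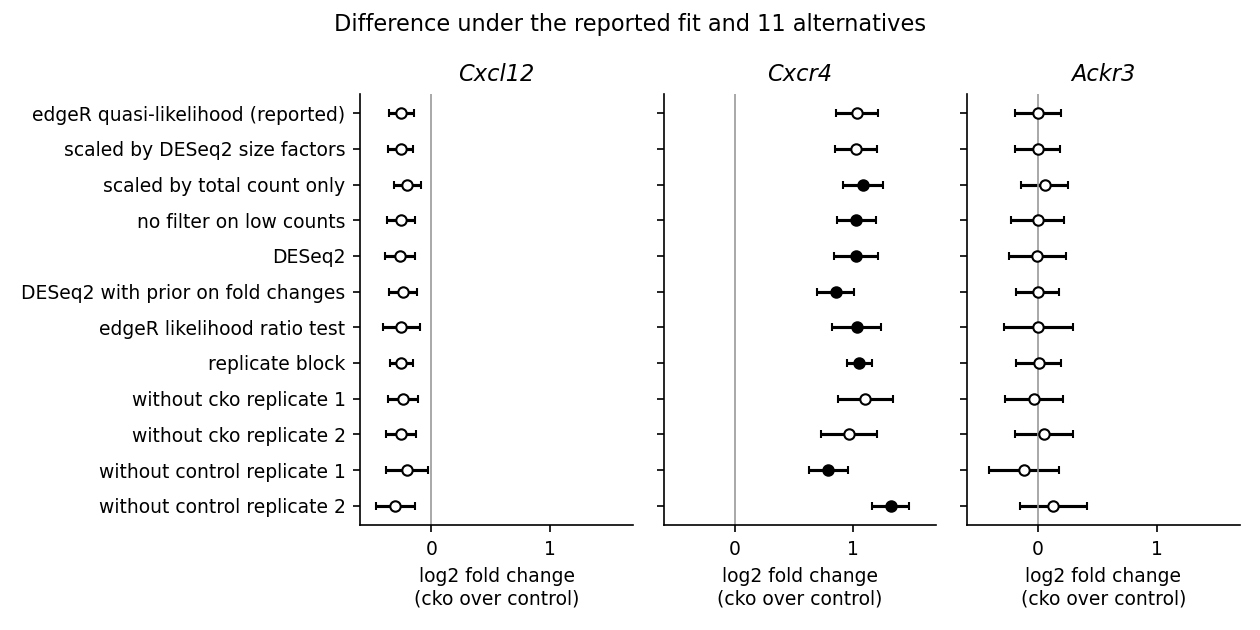
Log2 fold change (cko over control) of the 3 genes in the reported test and under 11 other settings, with bars of 1 standard error. Filled circles had an adjusted p under 0.05 and open circles did not. Cxcl12 stays between -0.30 and -0.20 and is open throughout, Cxcr4 stays between 0.79 and 1.31 and is filled in 8 of 11 alternatives, and Ackr3 moves to either side of 0 and is open throughout.

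The cells from which these transcripts come cannot be read from bulk counts, in which fewer cells of a type and less RNA per cell cannot be told apart, so markers of the likely sources are given beside the genes. The 15 markers of meningeal fibroblasts, the main known source of the ligand, summed to 119 and 107 CPM in cko and to 104 and 91.1 CPM in control, while Cxcl12 was lower in cko. Igf2 and Lama1 made up that difference, and without them, a choice made after seeing the data, the other 13 summed to 64.2 and 52.3 CPM in cko and to 70.9 and 54.7 CPM in control, with overlap. Other genes overlap 64.5% of the exonic length of Igf2, so its level is uncertain. Of these 15, 8 had a positive and 7 a negative log2 fold change, with a median of 0.054 beside -0.00056 over all genes tested. Lama1, a laminin chain of the pial basement membrane, rose to 13.6 and 10.8 CPM in cko, against 5.12 and 5.24 CPM in control (log2 fold change 1.23, SE 0.18, adjusted p = 0.0342, edgeR's quasi-likelihood test), and lost its call without control replicate 2 (adjusted p = 0.120). The collagen genes Col1a1, Col1a2 and Col3a1 overlapped between cko and control. None of the 15 was at 0, and Cxcl12 exceeded 14 of them per kb, all but Igf2.

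Markers of endothelium, a further site of Cxcl12 and Ackr3 in brain, had higher summed levels in cko. Their 16 genes summed to 494 and 501 CPM in cko and to 373 and 332 CPM in control, and 14 of the 16 had both cko libraries above both control libraries, beside 22.7% of all genes tested. The median log2 fold change was 0.47, but only Slco1a4, a transporter of the blood-brain barrier, passed edgeR's test, and it fell to 3.75 and 4.68 CPM in cko, against 10.3 and 8.78 CPM in control (log2 fold change -1.18, SE 0.19, adjusted p = 0.0415). That call was lost without cko replicate 1 (adjusted p = 0.0810), without control replicate 1 (0.0947) and without control replicate 2 (0.108), and also under scaling by total counts. Mural cell markers summed to 196 and 255 CPM in cko and to 191 and 179 CPM in control, with a median log2 fold change of 0.26. Thus the vessel markers ran higher in cko while Cxcl12 ran lower and Ackr3 overlapped, and the part of vessel RNA in these values was not tested.

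Cxcr4, by contrast, exceeded per kb all 15 meningeal markers, all 12 microglial or immune markers and 15 of 16 endothelial markers, the exception being Cldn5. It lay within the range of the granule precursor list, above 6 of its 13 genes, and of the postmitotic granule neuron list, above 5 of its 12. It also exceeded 9 of 10 astrocyte or Bergmann glia markers, all but Fabp7. The precursor list had a median log2 fold change of 0.22 with 0 of 13 genes called, where 1.58% of all genes were called. An unadjusted p under 0.05 in edgeR's test was reached by 5 of the 13, a larger share than the 13.6% of all genes. Markers of postmitotic granule neurons summed to 4213 and 5135 CPM in cko and to 6361 and 5924 CPM in control. Of the 11 tested, 3 had a positive and 8 a negative log2 fold change, with a median of -0.28, and 2 fell by edgeR's test, Gap43 and Nhlh1. Nhlh1 lost its call without cko replicate 1 (adjusted p = 0.0685), control replicate 1 (0.237) or control replicate 2 (0.131), and under scaling by total counts. The largest difference of the list ran the other way, in Grin2c, a glutamate receptor subunit gene of maturing granule neurons. Grin2c was at 23.0 and 15.5 CPM in cko and at 1.10 and 2.59 CPM in control (log2 fold change 3.40, SE 0.48, adjusted p = 0.0566, edgeR's quasi-likelihood test). Its log2 fold change ranged from 2.89 to 4.13 when a library was left out, and it passed the threshold in 5 of 11 alternatives. Further lists also differed between the genotypes. Skeletal muscle markers were low and summed to 34.8 and 67.7 CPM in cko and to 11.1 and 8.20 CPM in control, with a median log2 fold change of 2.38. Of the 12, 4 were called higher (Myh3, Tnnt3, Ckm and Myog), beside 0.809% of all genes. For 11 of 12 both cko libraries lay above both control libraries, beside 22.7% of all genes. Without control replicate 2 the calls of Myh3 (adjusted p = 0.144), Tnnt3 (0.134) and Ckm (0.148) were lost, and without control replicate 1 those of Myh3 (0.0812) and Tnnt3 (0.0608). Choroid plexus markers summed to 153 and 131 CPM in cko and to 90.7 and 84.4 CPM in control, with Clic6 called higher of 5 tested and a median of 1.05. Clic6 was at 33.3 and 33.9 CPM in cko and at 5.14 and 4.14 CPM in control. Otx2 made up the largest part of each sum (log2 fold change 0.34, not called). Ttr overlapped between genotypes, at 29.9 and 0.943 CPM in cko and at 17.9 and 2.64 CPM in control. For 4 of the 5 tested, Ttr being the exception, both cko libraries lay above both control libraries. Oligodendrocyte lineage markers summed to 419 and 440 CPM in cko and to 392 and 349 CPM in control, all 8 with a positive log2 fold change and Olig2 called higher, a call lost without cko replicate 1 (adjusted p = 0.0720), control replicate 1 (0.129) or control replicate 2 (0.104). Astrocyte or Bergmann glia markers summed to 980 and 968 CPM in cko and to 1113 and 1190 CPM in control, 8 of 10 with a negative log2 fold change and 0 called. The part of these cells in the levels of Cxcl12, Cxcr4 and Ackr3 was not tested. The precursor sums, though not all genes in them, were thus higher and the neuron sums lower in both cko libraries, beside the higher Cxcr4. Their part in the level of Cxcr4 was not tested.

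**Figure D3:**
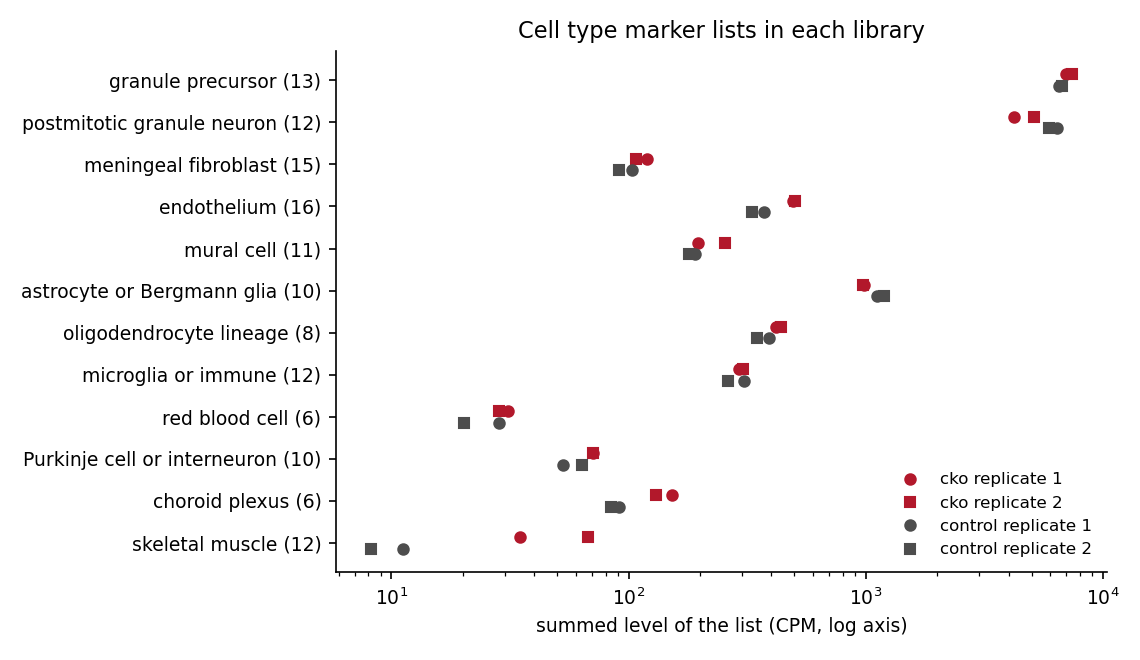
Summed level of 12 marker lists in each library, on a logarithmic CPM axis, with cko in red above control in grey, circles for replicate 1 and squares for replicate 2, and the number of genes in parentheses. Endothelial markers sum to 494 and 501 CPM in cko beside 373 and 332 CPM in control, and postmitotic granule neuron markers to 4213 and 5135 CPM in cko beside 6361 and 5924 CPM in control.

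Around the ligand and its receptors, most signal genes did not pass edgeR's test, which with 2 libraries a genotype does not show equal levels. All 62 genes of a list of CXCL12 partners, proteases, G proteins, receptor kinases, RGS proteins, ephrins, sorting factors and effectors were tested. Of these, 1 rose (Grk3), 3 fell (Efnb2, Elmo1 and Plcb1) and 58 did not pass edgeR's test, where 0.809% of all genes were called higher and 0.773% lower. Their median log2 fold change was 0.029 beside -0.00056 over all genes, and 16 had both cko libraries above and 16 both below the control libraries, beside 22.7% and 21.2% of all genes.

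Among the ligand side genes, MIF binds CXCR4 as an alternative ligand and HMGB1 binds CXCL12 itself. Mif was at 134 and 160 CPM in cko and at 126 and 146 CPM in control. Hmgb1 was at 1062 and 1242 CPM in cko and at 899 and 1292 CPM in control. Both overlapped between genotypes. Of the 4 proteases known to trim CXCL12, Dpp4, Mmp2, Mmp9 and Mmp14, 0 were called, with log2 fold changes between 0.13 and 0.52.

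Receptor kinases phosphorylate active CXCR4 so that arrestins bind it. Grk3 rose to 93.0 and 82.0 CPM in cko, against 55.5 and 53.8 CPM in control (log2 fold change 0.68, SE 0.10, adjusted p = 0.0370, edgeR's quasi-likelihood test). The groups did not overlap. Its call was lost without cko replicate 1 (adjusted p = 0.0627), control replicate 1 (0.0536) or control replicate 2 (0.163). The other kinases and the arrestins (Grk2, Grk5, Grk6, Arrb1 and Arrb2) did not pass, at log2 fold changes between -0.15 and 0.13. The G protein subunits Gnai1, Gnai2, Gnai3, Gnao1, Gnb1, Gnb2 and Gng2 did not pass either, with a median of -0.15. Gnb1, the most abundant of them per kb, was at 724 and 832 CPM in cko and at 868 and 864 CPM in control (log2 fold change -0.15, adjusted p = 0.664).

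RGS proteins switch off G proteins, and in mouse granule cells a PDZ-bearing form of RGS3 links ephrin-B to a block of the CXCR4 response. Rgs3 was at 22.7 and 26.3 CPM in cko and at 22.0 and 26.0 CPM in control (log2 fold change 0.029, adjusted p = 0.964, edgeR's quasi-likelihood test). Rgs16 had the largest positive log2 fold change of the list, 0.97, at 5.68 and 5.11 CPM in cko and 2.30 and 3.23 CPM in control, and did not pass (adjusted p = 0.115). Of the ephrin-B genes, Efnb2 fell to 24.2 and 23.9 CPM in cko, against 37.7 and 40.6 CPM in control (log2 fold change -0.70, SE 0.11, adjusted p = 0.0369). Efnb1 and Efnb3 did not pass, at log2 fold changes of 0.0057 and 0.15. The call of Efnb2 was lost without cko replicate 1 (adjusted p = 0.0580), without control replicate 2 (0.198) and under scaling by total counts.

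Effectors carry the signal to the cytoskeleton. Elmo1, a partner of DOCK proteins in the activation of RAC1, fell to 72.9 and 72.4 CPM in cko, against 120 and 145 CPM in control (log2 fold change -0.87, SE 0.11, adjusted p = 0.0259, edgeR's quasi-likelihood test). Plcb1, a phospholipase C that G protein subunits activate, fell to 37.8 and 46.4 CPM in cko, against 73.5 and 81.2 CPM in control (log2 fold change -0.88, SE 0.13, adjusted p = 0.0357). Without control replicate 2 the adjusted p was 0.0736 for Elmo1 and 0.123 for Plcb1, and without it 0 of the 62 genes were called. Cfl1, which encodes the actin-severing cofilin, was at 1037 and 1140 CPM in cko and at 1372 and 1292 CPM in control (log2 fold change -0.29, adjusted p = 0.330). Other genes overlap 16.5% of the exonic length of Cfl1, 10.1% of that of Rgs16 and 20.4% of that of Gng2, so these levels are uncertain. The overlap was larger for Rac1 (51.4%) and Hgs (97.2%) of the same list, which were not called. The remaining effectors did not pass.

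**Figure D4:**
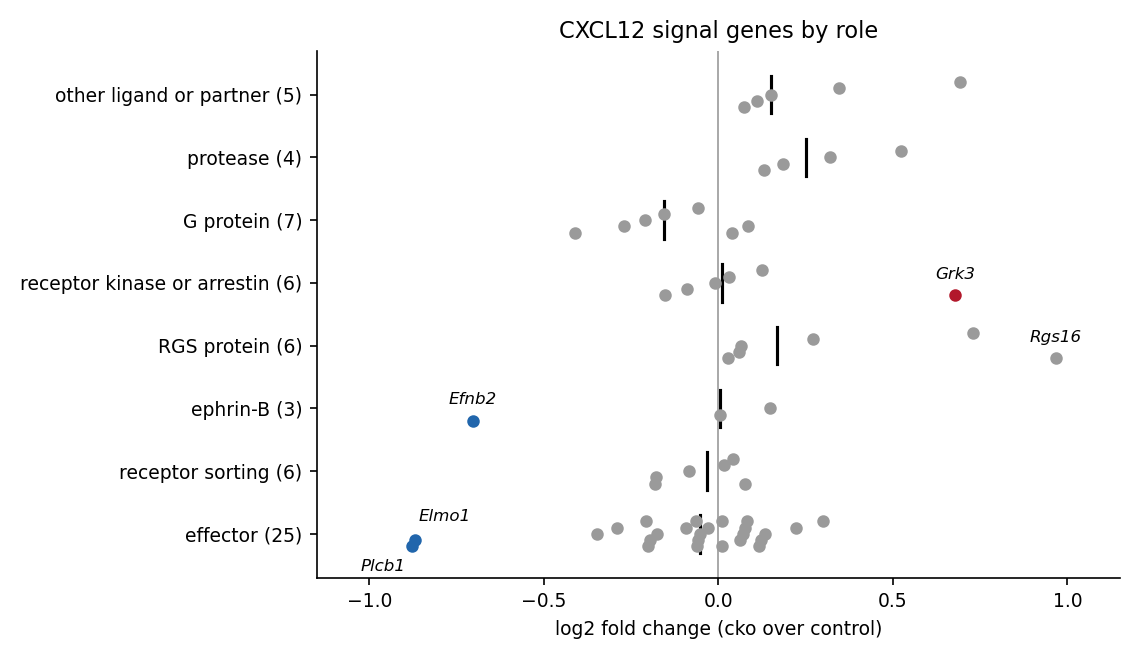
Log2 fold change (cko over control) of the 62 CXCL12 signal genes by role, with the number of genes in parentheses and the median of each role as a black bar. Red marks the gene called higher in cko (Grk3), blue those called lower (Efnb2, Elmo1 and Plcb1) and grey those not called. Most genes lie near 0, with Plcb1 at -0.88 and Rgs16, not called, at 0.97 as the extremes.

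Within the chemokine family, Cxcr4 had the highest level per kb of 62 ligand and receptor genes, with a mean of 49.8 CPM per kb over the 4 libraries, and it ranked 1 in each library. Cxcl12 ranked 6 and 7 in cko and 6 and 7 in control. Ackr3 ranked 9 and 12 in cko and 15 and 12 in control, among genes of nearly the same level. The genes next to Cxcr4 in this order were Ackr1 (15.2 CPM per kb) and Cxcl14 (15.0 CPM per kb). Of the other 59 family members counted, 28 passed the filter on low counts and 8 were listed at 0 in all libraries. None of the 28 was called by edgeR's quasi-likelihood test, beside 1.58% of all genes, 3 had an unadjusted p under 0.05, beside 13.6%, and DESeq2 called 1, Ackr1, beside 5.53%. Ackr1, a chemokine-binding receptor that does not signal through G proteins, was at 15.4 and 17.5 CPM in cko and at 26.8 and 25.9 CPM in control (log2 fold change -0.68, SE 0.12, adjusted p = 0.0517). Since 25.7% of its exonic length overlaps other genes and it is unknown whether the counting used strand, its level is uncertain.

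Cxcl14, a chemokine that acts together with CXCL12 on CXCR4, was at 57.1 and 10.3 CPM in cko and at 5.87 and 36.1 CPM in control, so that libraries of the same genotype differed more than the genotypes. Cx3cr1, the fractalkine receptor of microglia, was at 48.1 and 48.7 CPM in cko and at 48.0 and 43.1 CPM in control. Ccl3, a chemokine of activated immune cells, was at 3.44 and 8.99 CPM in cko and at 5.87 and 8.30 CPM in control. Neither of the pair passed edgeR's test, and microglial or immune markers summed to 292 and 304 CPM in cko and to 307 and 263 CPM in control.

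The neighbourhood of each gene was compared with the gene itself. Within 1 Mb there were 32 tested protein-coding genes, of which 1 was called by edgeR's test, where 1.58% of all genes were called. Around Cxcr4 that gene was Thsd7b, a large gene 681 kb to the right, toward higher coordinates. Thsd7b rose to 6.24 and 3.17 CPM in cko, against 0.509 and 0.845 CPM in control (log2 fold change 2.81, SE 0.42, adjusted p = 0.0388, edgeR's quasi-likelihood test), and it lost its call without control replicate 2 (adjusted p = 0.0736). Thsd7b was already known to differ when the window was chosen. The nearest gene on the other side, Dars, an aminoacyl-tRNA synthetase gene 171 kb away, was at 147 and 151 CPM in cko and at 135 and 136 CPM in control (log2 fold change 0.14, adjusted p = 0.605). Over all 11 tested neighbours of Cxcr4 the median log2 fold change was 0.14, and 7 had both cko libraries above both control libraries, beside 22.7% of all genes.

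The 14 tested neighbours of Cxcl12 had a median log2 fold change of 0.028 and 0 were called. The nearest, Rassf4 and Zfp637, 495 kb to the left and 660 kb to the right, were at 0.016 and -0.093. The 7 tested neighbours of Ackr3 had a median of -0.16 and 0 were called. With 1.58% of all genes called, 0 calls among so few genes say little. Its nearest tested neighbours were Iqca, 50.6 kb to the left (log2 fold change 0.35, at no more than 0.602 CPM in any library), and Cops8, 386 kb to the right (-0.16).

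**Figure D5:**
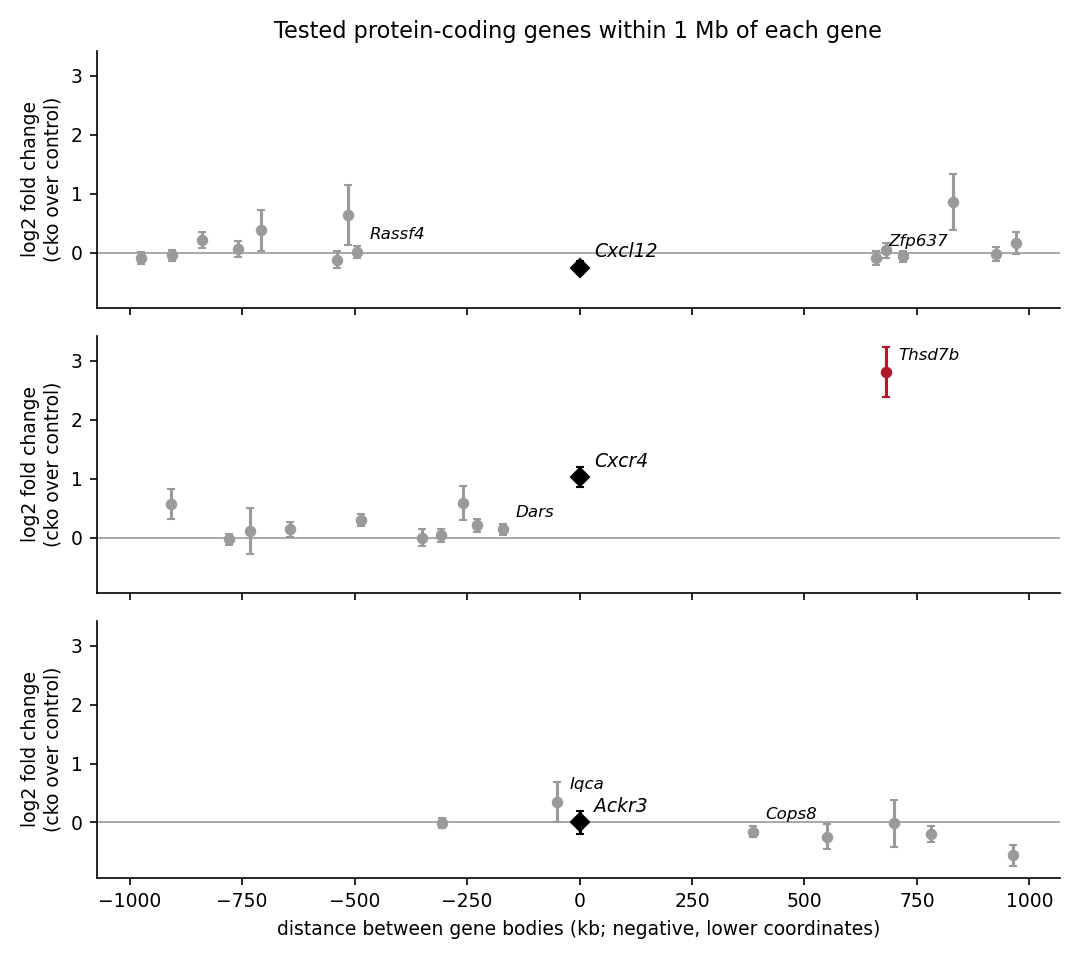
Log2 fold change (cko over control, with bars of 1 standard error) of tested protein-coding genes against their distance in kb from the gene bodies of Cxcl12, Cxcr4 and Ackr3 (black diamonds at 0). Red marks a gene called higher in cko and grey those not called. Thsd7b stands at 2.81 to the right of Cxcr4, which is at 1.03, while most other neighbours lie near 0.

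The genes with the profile most like each of the 3 over the 4 libraries were found by the distance between centred log2 CPM values among 11867 protein-coding genes. Nearest to Cxcr4 were Nalcn, a sodium leak channel gene, Fam189a1 and En1, a homeobox gene of the midbrain and cerebellum, at distances of 0.0689, 0.106 and 0.115. Nalcn was at 26.5 and 27.5 CPM in cko and at 11.2 and 15.9 CPM in control. En1 was at 28.1 and 28.6 CPM in cko and at 12.1 and 17.5 CPM in control. Like Cxcr4, both were higher in cko without passing edgeR's test (adjusted p = 0.0553 for Nalcn and 0.0679 for En1), and lower in control replicate 1 than in control replicate 2. This likeness follows from the choice of genes by profile. Nearest to Cxcl12 were Cnrip1, BC031181 and Mlf2 (0.00977, 0.0129 and 0.0147), and nearest to Ackr3 were Baz1a, Itch and Zfp974 (0.0155, 0.0156 and 0.0272), where Itch encodes the ubiquitin ligase that sorts CXCR4 for degradation. With 4 points such likeness is common, and a correlation of at least 0.95 was reached with Cxcr4 by 574 genes, with Cxcl12 by 629 and with Ackr3 by 107.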

How the data were processed

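The authors deposited raw counts per Ensembl 75 gene for 4 RNA-Seq libraries. Per the labels and the study's methods, reads were trimmed (Trim Galore 0.4.1), mapped to mm10 (TopHat2 2.0.14) and counted by HTSeq 0.6.1p1 in its intersection-strict mode, leaving out reads of alignment quality under 3. No strand setting is given in the sources used here. Names, positions and exonic lengths came from GENCODE vM21 on GRCm38 (mm10), matching 37607 of 38924 genes, and promoters from RefSeq on GRCm38.p6.

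Genes were kept with filterByExpr, scaled by TMM and tested with edgeR 4.0.16 in R 4.3.3 (robust quasi-likelihood), with Benjamini-Hochberg adjustment over 16436 genes and a threshold of 0.05. The test was checked on simulated data. Standard errors are the log2 fold change divided by the square root of F. Replicate libraries differed beyond sampling noise and count as separate libraries. DESeq2 1.42.0, other scalings, the filter, the likelihood ratio test, a replicate block and leave-one-out fits were alternatives.

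The 3 genes and all lists were chosen with earlier results of these data known. Named genes were the 3 genes, Chd7, Xist and Ddx3y, called genes and the 4 most abundant per kb in the signal and chemokine lists, the 3 most abundant markers of each list (given here through the sums), the nearest tested and called neighbours within 1 Mb, and the 3 genes of nearest profile whose average log2 CPM reached 1. Other genes were named after their values were seen.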

Additional observations from a re-analysis of the deposited data

How the results depend on the processing

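With only 2 libraries a genotype, Cxcl12 kept its negative log2 fold change under all 11 alternatives, from -0.30 to -0.20, with adjusted p between 0.171 and 1.00. In edgeR's quasi-likelihood test, the log2 fold change of Cxcr4 passed the threshold with scaling by total counts (1.08, adjusted p = 0.0493). It passed without the filter on low counts (1.02, adjusted p = 0.0128), but not with DESeq2 size factors (1.02, adjusted p = 0.0571). Cxcr4 also passed with DESeq2 (1.02, adjusted p = 4.5e-06) and with DESeq2 and its prior (0.85, adjusted p = 4.4e-06). With edgeR's likelihood ratio test it passed too (1.03, adjusted p = 6.1e-05). The log2 fold change of Cxcr4 ranged from 0.79 to 1.31 when a library was left out. The cause of these changes was not tested. Ackr3, near 0, changed sign with DESeq2 size factors (-0.0043), without the filter (-0.0028), with DESeq2 (-0.0054) and with its prior (-0.0041), and ranged from -0.12 to 0.13 when a library was left out, with 0 of 11 alternatives past the threshold.

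Over all genes, calls numbered 727 without the filter, 890 with DESeq2, 879 with its prior and 675 with the likelihood ratio test, against 260 in the reported test, and 115 to 712 when a library was left out. Leaving out a library gave 0 to 5 called signal genes, 0 to 1 called chemokine genes and 0 to 1 called neighbours. Other chemokine genes called were 1 without the filter, 1 with DESeq2, 1 with its prior and 2 with the likelihood ratio test.

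The replicate numbers are shared between genotypes, but no label says that a number marks a shared animal, litter or day, and same-numbered libraries deviated together only weakly (correlation 0.187 over 16436 genes, 2 pairs). With a replicate block Cxcr4 was at 1.05 (adjusted p = 0.00329, edgeR's quasi-likelihood test), and 1010 genes were called (530 higher and 480 lower), with 7 signal genes, 1 other chemokine gene and 0 neighbours.

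Among other named genes, scaling by total counts turned Zfp974 to 0.042. Leaving out a library gave ranges for Hmgb1 from -0.17 to 0.36, Mif from -0.023 to 0.24, Cxcl14 from -1.01 to 2.52, Ccl3 from -1.04 to 0.35, Rassf4 from -0.081 to 0.12, Zfp637 from -0.22 to 0.036, Baz1a from -0.10 to 0.13, Itch from -0.10 to 0.14 and Zfp974 from -0.12 to 0.11 on the log2 scale.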
